A study of Cladosporium europaeum with 50 samples.

Results

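The genes of DNA replication, DNA repair, histones, chromatin, chromosome segregation and the cell cycle, together with nucleases and reverse transcriptases, were followed in the filamentous fungus Cladosporium europaeum, strain F32, isolated from a soil long contaminated with polychlorinated biphenyls (PCB). They were chosen by words in the annotation that the authors deposited (such as histone, chromatin, DNA polymerase, SET domain, cyclin, nuclease or reverse transcriptase), leaving out kinases and RNA polymerases. This gave 21 genes among the 920 that the authors listed as changed in at least 1 comparison, of which 705 carry an annotation. Genes that were never listed, and listed genes with no annotation, could not be chosen, so the 21 are not all the genes of these processes in the genome. Mycelium was grown in mineral medium with 5 g/L glucose and 6 mg/L of PCB180, PCB153, PCB101 or PCB52, or with glucose and no PCB as the control, and polyadenylated RNA was sequenced after 24 h and after 96 h. Each of the 10 groups had 5 replicates, and the labels do not say whether these were separate cultures. PCB180 is a heptachlorobiphenyl, PCB153 a hexachlorobiphenyl, PCB101 a pentachlorobiphenyl and PCB52 a tetrachlorobiphenyl.

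Before a cell divides it copies its DNA at forks, where a helicase unwinds the strands and polymerases copy them, and it wraps the copies around histones. Enzymes that add or remove acetyl and methyl groups on histones make chromatin more or less open to transcription. Cyclins time these steps, and kinetochores attach the copied chromosomes to spindle microtubules. Reverse transcriptase genes in fungal genomes mostly belong to retrotransposons, mobile elements that fungi often hold silent in closed chromatin.

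Each value compares a congener with the control at that hour and is the authors' log2 fold change with its standard error, so a value of 1 is a 2-fold rise and a negative value means a lower level under the congener. Only listed genes were used here, and against control these all had a log2 fold change of 1 or more in absolute size at an adjusted p under 0.05. "Rose" and "fell" refer to genes listed in this way. Values per sample were not used here, so the overlap of single samples between groups is not described. Depth per sample is unknown. The mean normalized count, which is not scaled for gene length, ran over the 21 genes from 14.2 for the endoribonuclease L-PSP ptg000017l.130 to 1620 for the reverse transcriptase ptg000027l.597 in the authors' deposited table. The median over all 920 listed genes was 302.

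Nearly all listings of the 21 genes came after 96 h and under the congeners with the most chlorine, as did nearly all listings of any gene. Of the 1102 listings in all comparisons, 821 were under PCB180 at 96 h and 261 under PCB153 at 96 h. Under PCB180 at 96 h 20 of them were listed, of which 14 rose and 6 fell, where 7.26% of the 11313 genes tested were listed, 4.59% as risen and 2.67% as fallen. Under PCB153 at 96 h 6 were listed and all 6 rose, where 2.4% of 10874 genes tested were listed, 1.82% as risen. Under PCB153 at 24 h 1 was listed, which rose, against 0.053% of the genes tested. None was listed under PCB101 at 96 h (0.0796% of the genes tested were listed), PCB180 at 24 h (0.0177%) or PCB52 at 24 h and 96 h (0.00884% at each hour). The files used here hold no row for PCB101 at 24 h. Since the genes were drawn from the lists themselves, their number does not show whether the processes responded more often than others. Under PCB180 at 96 h 70% of the members rose, against 63.2% of all 821 listed genes, and the median absolute log2 fold change was 1.45 against 1.46. Of the 20 members, 50% had an adjusted p under 0.01, against 46.8% of all genes listed under PCB180, where 3.39% of the genes tested were listed at that level. Under PCB153 at 96 h 100% of the 6 members rose, against 75.9% of all 261 listed genes, and 16.7% had an adjusted p under 0.01, against 37.5% of those listed and 0.901% of the genes tested. These shares were not tested.

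**Figure D1:**
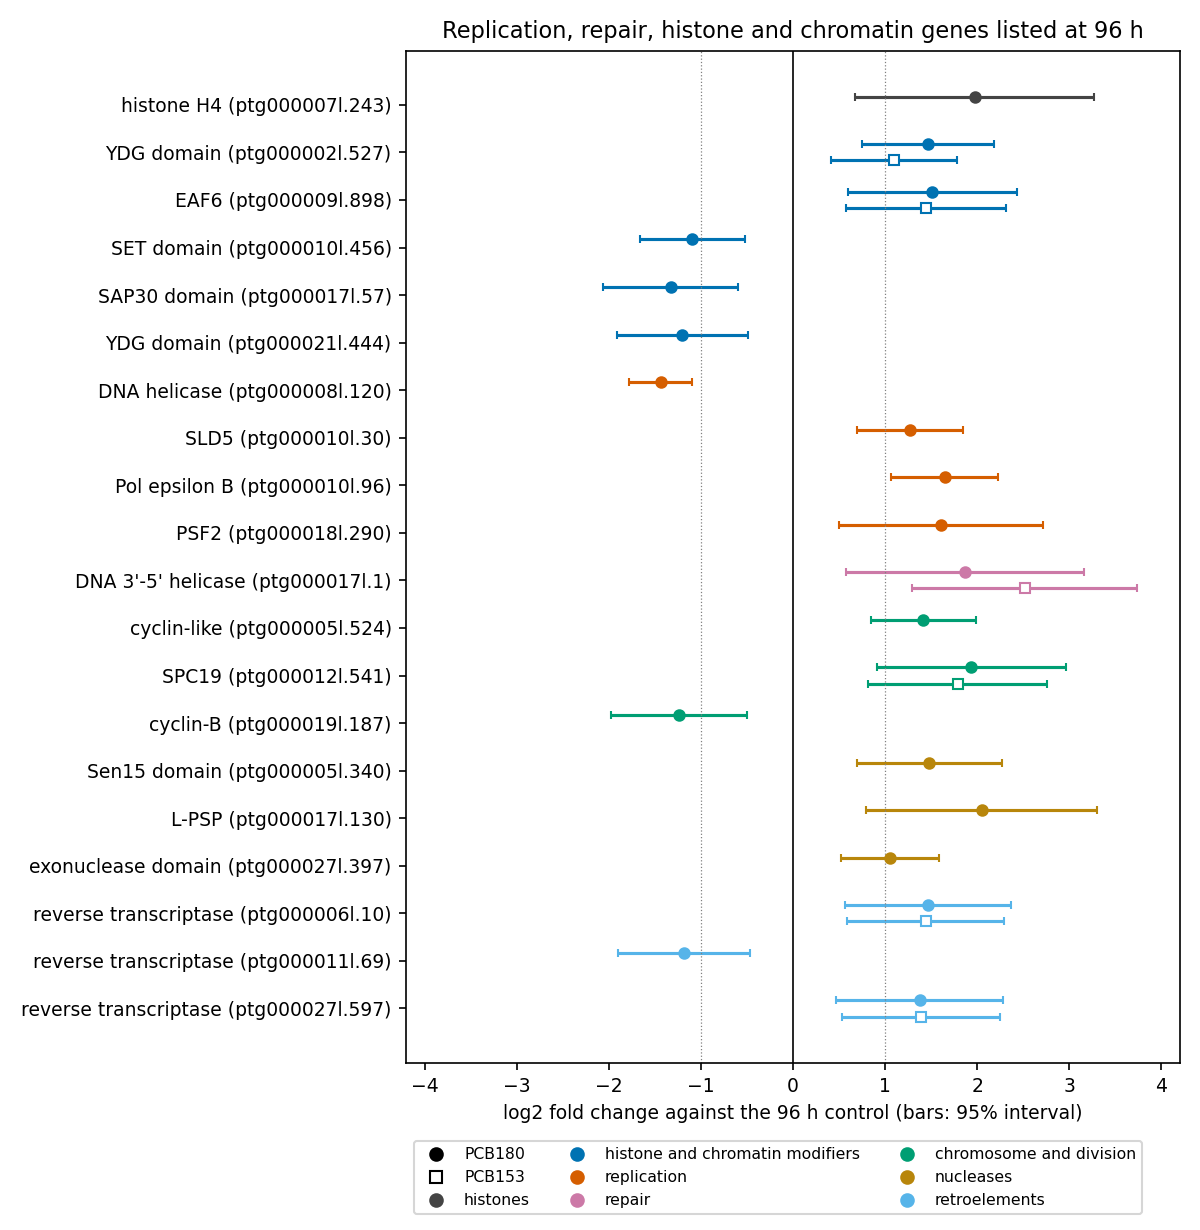
Log2 fold change against the 96 h control (x axis) of the 20 genes listed at 96 h, one row a gene, for PCB180 (filled circles) and, where listed, PCB153 (open squares); bars are 95% intervals from the authors' standard errors and colours mark the role. Of the 20 genes 14 lie on the right and 6 on the left under PCB180, and the 6 with a PCB153 value lie on the right for both congeners.

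Histone H4 (ptg000007l.243), one of the core proteins of the nucleosome, was the single histone gene listed. It rose under PCB180 at 96 h by a log2 fold change of 1.97 ± 0.66 (standard error) in the authors' deposited table, which is 3.93-fold with a 95% interval of 1.60-fold to 9.66-fold. The interval is wide, and the authors' deposited table gives an adjusted p of 0.035.

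The 5 genes for proteins that modify or read chromatin went both ways under PCB180, with 2 that rose and 3 that fell. EAF6 (ptg000009l.898), in budding yeast a subunit of the NuA4 histone acetyltransferase, rose by 1.51 ± 0.47 on the log2 scale (adjusted p, 0.0207) in the authors' deposited table. A SAP30 domain protein (ptg000017l.57), which in yeast belongs to the Sin3 histone deacetylase complex, had a log2 fold change of -1.33 ± 0.37 (adjusted p, 0.00969) in the authors' deposited table.

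A SET domain gene (ptg000010l.456), of the domain that most histone lysine methyltransferases share, had a log2 fold change of -1.09 ± 0.29 under PCB180 in the authors' deposited table, at an adjusted p of 0.00582. The annotation does not name its substrate. A pair of genes for the YDG domain, known in plants and mammals as the SRA domain that binds methylated DNA, differed in direction. The YDG gene ptg000002l.527 rose by 1.47 ± 0.37 and the YDG gene ptg000021l.444 had a log2 fold change of -1.20 ± 0.36 under PCB180 in the authors' deposited table. The 95% interval was 0.75 to 2.19 for ptg000002l.527 and -1.91 to -0.49 for ptg000021l.444.

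Genes grouped under replication by words in their annotation held the fall and the rise with the smallest adjusted p among the 21 genes. The DNA helicase ptg000008l.120, of the ATP-driven class (EC 3.6.4.12) that unwinds DNA, fell to 36.9% of control under PCB180, a log2 fold change of -1.44 ± 0.18 in the authors' deposited table. The annotation does not say whether this helicase acts in replication or elsewhere. No other of the 1102 rows of the authors' deposited table had an adjusted p as small as its 2.74e-12. The size of this fall was moderate, as 94 of the 302 genes that fell under PCB180 fell further, and only 1 of the 821 listed genes had a smaller standard error. DNA polymerase epsilon subunit B (ptg000010l.96), part of the polymerase that copies the leading strand, rose by 1.65 ± 0.30 (adjusted p, 9.81e-06) in the authors' deposited table. These 2 genes were the only members whose 95% interval under PCB180 lay wholly beyond 1 in absolute size, a property of 130 of the 821 listed genes or 15.8%.

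A pair of subunits of GINS, the small complex that joins the replicative helicase at the fork and to which polymerase epsilon binds in yeast, were also listed. SLD5 (ptg000010l.30) rose by 1.27 ± 0.29 at an adjusted p of 0.00121 under PCB180 in the authors' deposited table. For PSF2 (ptg000018l.290) the authors' deposited table gives a rise of 1.61 ± 0.56, and its adjusted p of 0.0447 was close to the threshold. The 3 replication genes that rose lay between 1.27 and 1.65, opposite in sign to the DNA helicase, whose annotation does not place it at the fork. No further listed gene is annotated as a subunit of GINS or of polymerase epsilon.

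The DNA 3'-5' helicase ptg000017l.1 (EC 5.6.2.4), an activity that RecQ-type helicases of DNA repair share, was the member with the largest rise under PCB153. It rose by a log2 fold change of 1.87 ± 0.66 under PCB180 and by 2.51 ± 0.62 under PCB153 at 96 h in the authors' deposited table, which is 3.64-fold under PCB180 and 5.71-fold under PCB153. Its mean normalized count was only 17.9, and its adjusted p was 0.0477 under PCB180 and 0.00661 under PCB153, as the authors' deposited table gives it. Its gene number on its contig is 1.

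**Figure D2:**
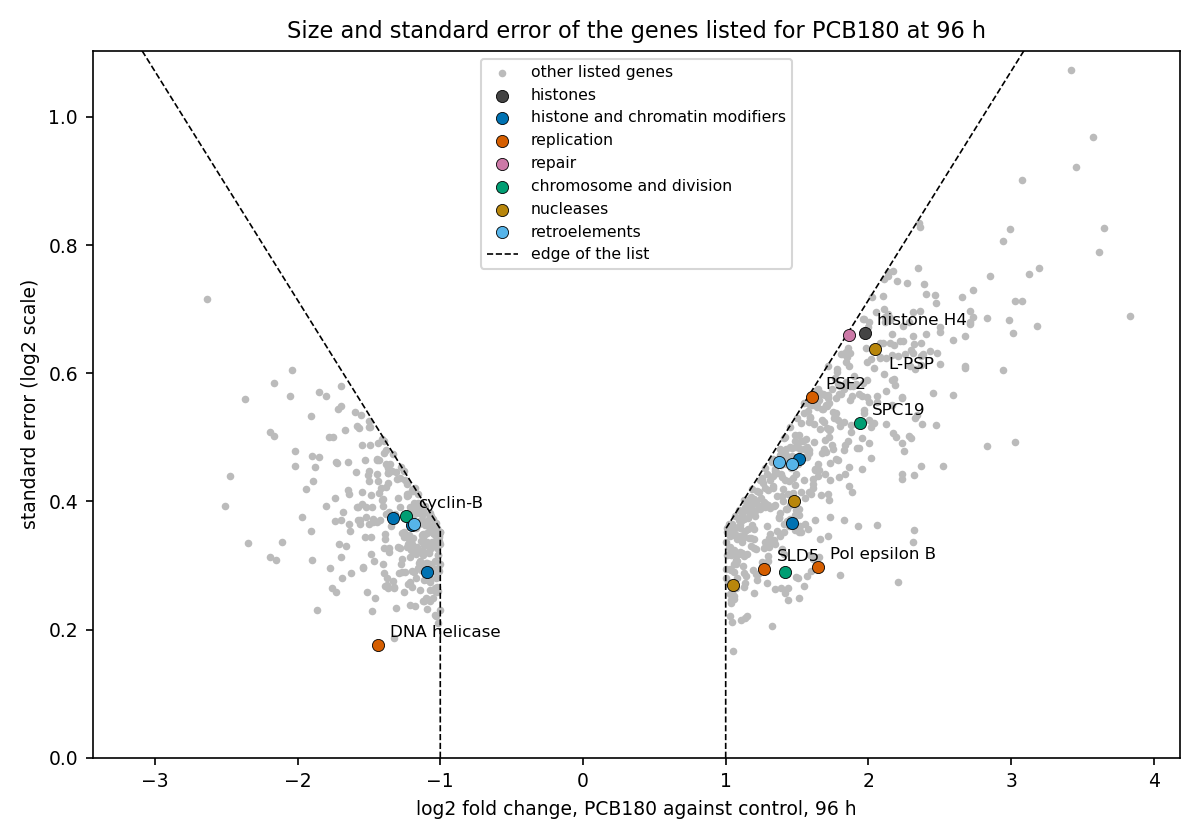
Log2 fold change (x axis) against its standard error on the log2 scale (y axis) for the 821 genes listed for PCB180 at 96 h, with the 20 members in colour by role and the edge set by the listing criteria as a dashed line. The DNA helicase lies at -1.44 with a standard error of 0.18, lower than nearly all other points, whereas PSF2 lies close to the edge.

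Among genes of chromosome segregation and division, SPC19 (ptg000012l.541) rose under both congeners. SPC19 is a subunit of the DASH complex, the fungal ring that couples kinetochores to microtubules. It rose by 1.94 ± 0.52 under PCB180 and by 1.79 ± 0.50 under PCB153 (log2) in the authors' deposited table, or 3.83-fold under PCB180 and 3.46-fold under PCB153. The cyclin-B gene and the gene with a cyclin-like domain differed in direction. A G2/mitotic-specific cyclin-B (ptg000019l.187), of the class that drives entry into mitosis, fell to 42.4% of control under PCB180, with -1.24 ± 0.38 in the authors' deposited table. A gene for a protein with a cyclin-like domain (ptg000005l.524), a fold that cyclins share with some transcription proteins, rose by 1.41 ± 0.29 (adjusted p, 0.000169) in the authors' deposited table.

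The 3 nuclease matches all rose under PCB180, where 63.2% of all listed genes rose, and 2 of them are annotated to RNA or metabolite chemistry rather than to DNA. A Sen15 domain protein (ptg000005l.340), in yeast a subunit of the enzyme that cuts introns out of precursor tRNA, rose by 1.48 ± 0.40 (adjusted p, 0.00686) in the authors' deposited table. The endoribonuclease L-PSP ptg000017l.130, also annotated as YjgF-like, a family that clears reactive enamines, had the largest PCB180 rise of the members, 2.05 ± 0.64 in the authors' deposited table. Its mean normalized count of 14.2 was the lowest of the 21 genes. An exonuclease domain gene (ptg000027l.397), whose annotation does not say whether it cuts DNA or RNA, rose by 1.05 ± 0.27, the smallest rise of the members under PCB180 in the authors' deposited table. Without the Sen15 domain protein and L-PSP, 12 members rose under PCB180.

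Of the 4 reverse transcriptase genes, 3 were listed at 96 h and 1 at 24 h. The gene ptg000006l.10 rose by 1.47 ± 0.46 under PCB180 and by 1.44 ± 0.43 under PCB153 (log2) in the authors' deposited table. The gene ptg000027l.597 rose by 1.37 ± 0.46 under PCB180 and by 1.39 ± 0.44 under PCB153, as the authors' deposited table gives it. In contrast, ptg000011l.69 had a log2 fold change of -1.18 ± 0.36 under PCB180 in the authors' deposited table. The gene ptg000027l.84 rose under PCB153 at 24 h by 2.08 ± 0.47, or 4.24-fold, at an adjusted p of 0.0184 and a mean normalized count of 25.1 in the authors' deposited table. It was the largest rise of the 4 genes that rose in that comparison, and the gene was not listed at 96 h. Members of repeated element families can share reads with near-identical copies, and how the authors' counting treated these is not given in the sources used here, so the values of these 4 genes are uncertain.

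PCB180 carries 1 chlorine more than PCB153, and the 6 members listed under both at 96 h allow the congeners to be set side by side at the same dose and hour. Both comparisons use the same control samples, so each gene's 2 values are not independent. Being listed under both congeners also favours genes with like values, and genes that responded to 1 congener alone are left out. The authors' deposited table gives rises of 1.51 ± 0.47 under PCB180 and 1.45 ± 0.44 under PCB153 for EAF6 (ptg000009l.898), and of 1.47 ± 0.37 under PCB180 and 1.10 ± 0.35 under PCB153 for the YDG gene ptg000002l.527. A two-sided test with a normal approximation was applied to each difference of log2 fold changes, with an assumed correlation of 0.5 for the shared control, which takes groups of equal size. Whether the groups entered the authors' comparisons at equal size is not known. Values of p were adjusted by Benjamini-Hochberg over the 190 differences of all genes listed for both congeners of a pair, in 6 pairs of congeners. No member reached an adjusted p under 0.05, with 0 of 190 differences called in all. An unadjusted p under 0.05 was reached by 0 of the 6 members, beside 18 of all 171 genes listed for PCB180 and PCB153. With only 6 members this does not set them apart from the other genes. The adjusted p of the 6 members lay between 0.919 and 0.997. PCB180 minus PCB153 was 0.37 (95% interval -0.33 to 1.07) for the YDG gene ptg000002l.527 and 0.15 (-0.85 to 1.15) for SPC19. It was -0.65 (95% interval -1.91 to 0.61) for the DNA 3'-5' helicase ptg000017l.1. For EAF6 and the reverse transcriptases ptg000006l.10 and ptg000027l.597 the differences were 0.07, 0.03 and -0.02. Their 95% intervals ran from -0.82 to 0.96 for EAF6, from -0.85 to 0.90 for ptg000006l.10 and from -0.90 to 0.87 for ptg000027l.597. Intervals as wide as these do not show that the congeners act alike. In the direct comparison of PCB180 with PCB153 the authors' deposited table holds 1 gene (0.00884% of those tested), which is not a member.

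**Figure D3:**
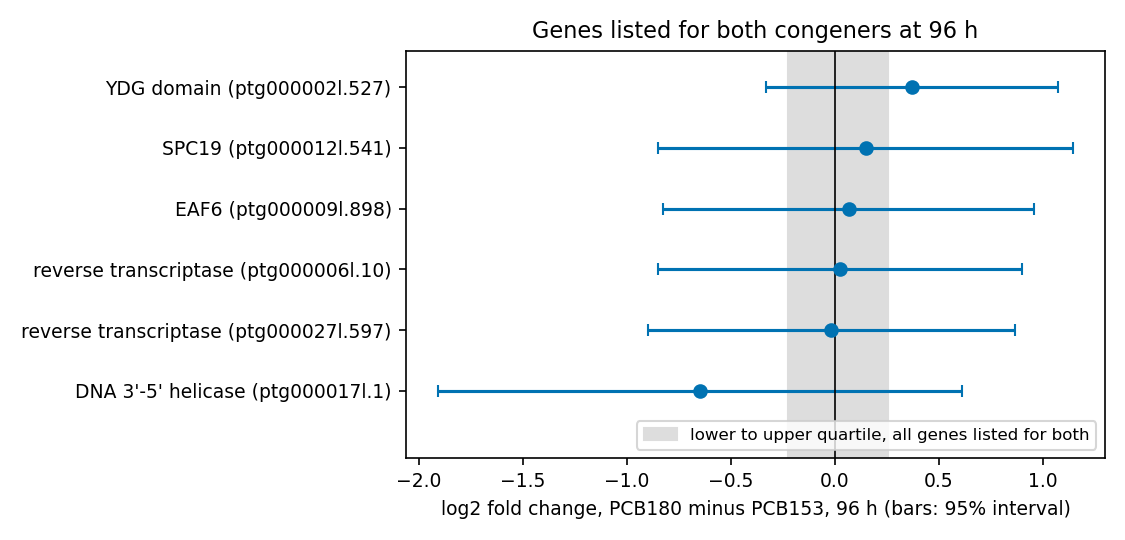
Difference of the log2 fold changes, PCB180 minus PCB153 at 96 h (x axis), for the 6 members listed for both congeners, with 95% intervals as bars; the grey band runs from the lower to the upper quartile over all 171 genes listed for both. Each interval includes 0, and the DNA 3'-5' helicase lies lowest at -0.65.

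The other 14 members listed under PCB180 at 96 h have no PCB153 value in the lists used here. For these only the size of estimate that would have been listed can be approximated. Standard errors under PCB153 were 0.949 times those under PCB180 in the median of the 171 genes listed for both (range 0.922 to 0.968). The files used here do not show why the errors differ by a nearly constant factor, nor whether all 5 replicates of the PCB180 and control groups entered the comparisons. Taken with the lowest test score of a gene listed under PCB153, 3.13, these standard errors give the absolute log2 fold change at which each member would have been listed. The PCB180 value reached this limit for 13 of the 14 genes. This count was largely set by the listing itself and is not a result about the members. The limit rests on each gene's own PCB180 error, and every gene listed under PCB180 had a score of at least 2.80 in absolute size. For the DNA helicase ptg000008l.120, polymerase epsilon subunit B, SLD5 and the cyclin-like protein ptg000005l.524 the limit was 1, below their PCB180 values of -1.44, 1.65, 1.27 and 1.41 in absolute size. A PCB153 estimate as large as the PCB180 estimate would thus have been listed for these 4 genes. A true response of that size could still have given an estimate below the limit, so their absence does not show a smaller response. For PSF2 it was 1.67, above its PCB180 value of 1.61, and for histone H4 1.96, just under its PCB180 value of 1.97. The absence of these 2 genes from the PCB153 list therefore sets no useful limit. This estimate is approximate and is not a test of the difference. For PCB101 at 96 h the lowest listed test score was 4.12, and the ratio of standard errors came from only 7 genes listed for both congeners. The PCB180 values of 5 of the 20 members would have been listed there. For the other 15 the absence says little, and for the 5 it does not show a smaller response either.

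Further genes of replication, chromosome structure and transposition were drawn from a second list of words (such as DNA ligase, centromere, anaphase, tubulin, chromo domain, sirtuin or transposase). It matched 19 listed genes outside the 21, and 7 of these matched by letters alone (Rad inside intradiol, for example) and were set aside after the values were seen. Of the 12 that were left, 6 rose and 3 fell under PCB180 at 96 h, 3 rose and 1 fell under PCB153 at 96 h, and 1 rose under PCB153 at 24 h. These genes too were drawn from the lists, so their number does not show whether the processes responded more often than others. Of all listed genes 63.2% rose under PCB180 and 75.9% under PCB153 at 96 h, and the shares were not tested. Centromere protein S (ptg000008l.414), a histone-fold protein of the kinetochore and of fork repair in vertebrates, rose by 2.37 ± 0.65 under PCB180 and by 2.05 ± 0.61 under PCB153 (log2) in the authors' deposited table. The APC4 WD40 domain gene ptg000012l.197, of a domain found in a subunit of the complex that marks cyclin B for destruction, rose by 1.38 ± 0.38 under PCB180 and by 1.78 ± 0.36 under PCB153, as the authors' deposited table gives it. Its annotation names the domain only and does not say that the protein belongs to this complex. The test above called a difference between the congeners for neither gene (PCB180 minus PCB153 of 0.32, 95% interval -0.91 to 1.56, for centromere protein S and -0.39, -1.12 to 0.34, for ptg000012l.197).

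All 3 transposase genes of this second list rose under PCB180, where 63.2% of all listed genes rose, and so did a chromo domain gene. They were a transposase (ptg000012l.7) at 2.11 ± 0.60 and Tc1-like transposases, which cut and paste DNA elements, at 1.80 ± 0.58 (ptg000035l.69) and 1.75 ± 0.48 (ptg000011l.211) in the authors' deposited table. As for the reverse transcriptases, reads may be shared with near-identical copies, so these values are uncertain. The chromo domain gene ptg000017l.445, of a domain that often binds methylated histones and also occurs in retrotransposons, rose by 1.83 ± 0.48 at a mean normalized count of only 16.3 in the authors' deposited table. This gene is also annotated as a BED-type domain protein. The sirtuin-type gene ptg000010l.226, of a family of NAD-dependent deacetylases, had a log2 fold change of -1.64 ± 0.42 in the authors' deposited table. Genes with a helicase ATP-binding domain, which may act on DNA or RNA, stood at -1.80 ± 0.57 (ptg000027l.16) and -1.02 ± 0.34 (ptg000027l.609) under PCB180 in the authors' deposited table.

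Under PCB153, DNA ligase (ptg000016l.246), which seals nicks in replication and repair, rose by 1.21 ± 0.31 at 96 h and a tubulin beta chain (ptg000007l.478), a building block of spindle microtubules, had a log2 fold change of -1.17 ± 0.33 in the authors' deposited table. At 24 h dihydrofolate reductase (ptg000016l.182), whose product is needed to make thymidylate for DNA, rose by 1.57 ± 0.35 in the authors' deposited table.

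**Figure D4:**
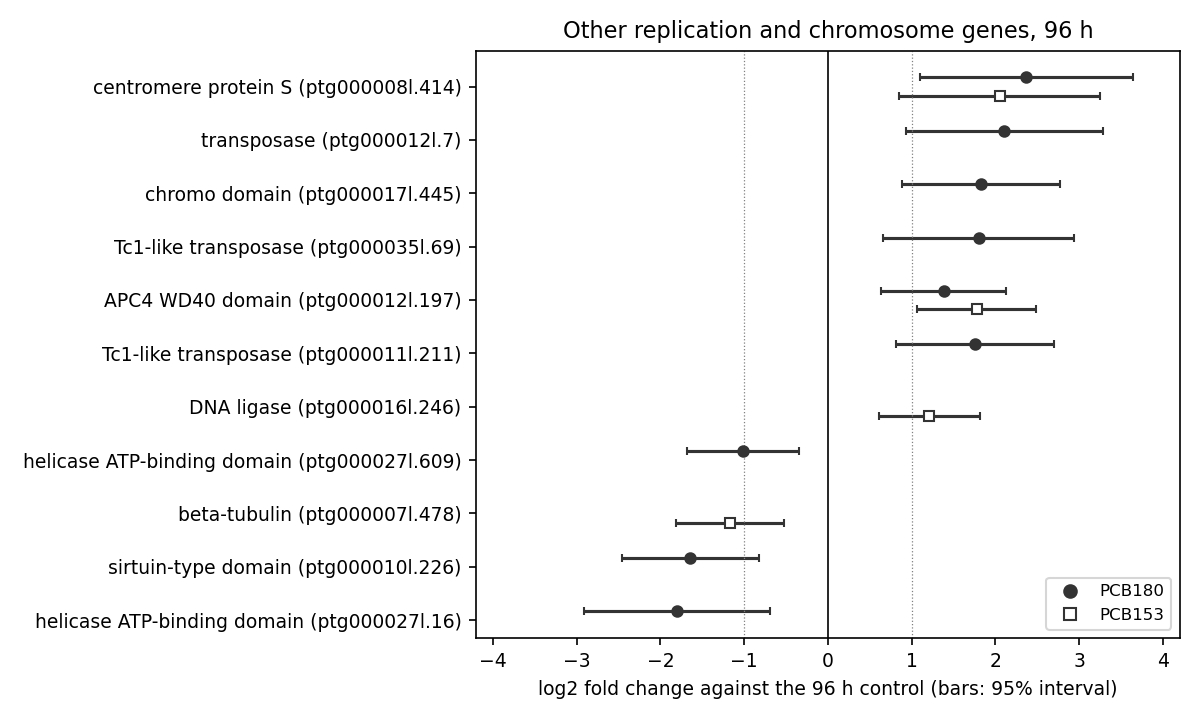
Log2 fold change against the 96 h control (x axis) of the further replication, chromosome and transposase genes listed at 96 h, for PCB180 (filled circles) and PCB153 (open squares), with 95% intervals as bars. Centromere protein S lies highest at 2.37 under PCB180, and both helicase-domain genes and the sirtuin-type gene lie left of 0.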

How the data were processed

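The deposited files used here are tables of the authors' comparisons, limited to listed genes. Per the labels' protocols, libraries were made by a polyA method from TRIzol-extracted RNA; no source used here gives the aligner, counter, genome build or test program. Per the file headers, the deposited columns are log2 fold change, its log2 standard error, a test statistic (here called a score), the p-value, the adjusted p-value and the mean over samples of the normalized count (a signal). In all 1102 rows the score was the ratio of log2 fold change to standard error, and its two-sided normal p was the p-value (tolerances 1e-06 for the score and 0.001 of the p-value). A shorter, rounded deposited table carries the annotation by which genes were chosen.

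Single genes were not tested anew against control. The number of genes tested is the whole number that turns the most ratios of p-value to adjusted p into ranks without a remainder (tolerance 1e-05). Intervals are 95% normal intervals from the deposited standard errors. Differences between congeners used an assumed correlation of 0.5, and the calculation was tested on simulated data with a shared control (Python 3.11.15, scipy 1.17.1). The genes, the second word list and the tests were chosen with earlier results of these data known. Every one of the 21 genes is named. Of the further genes up to 6 in a comparison were to be named by absolute log2 fold change; under PCB180 all 9 are named, the last 3 chosen after their values were seen. Alternatives were an adjusted p under 0.01, a log2 fold change beyond 1.5 or 2 in absolute size, removal of the 25% of genes with the lowest mean normalized count (77.5 or less), the first annotation only, removal of enzymes that act on RNA, correlations of 0, 0.3 and 0.7, and adjustment within each pair.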

Additional observations from a re-analysis of the deposited data

How the results depend on the processing

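At an adjusted p under 0.01, 7 members that rose and 3 that fell were left under PCB180 at 96 h, 1 that rose under PCB153 at 96 h and 0 under PCB153 at 24 h. With log2 fold changes beyond 1.5 in absolute size the counts were 7 that rose and 0 that fell under PCB180 and 2 that rose under PCB153 at 96 h, and at 2 they were 1, 0 and 1. Over all genes listed under PCB180 at 96 h the median log2 fold change was -1.27 for falls and 1.59 for rises. Most listed falls of any gene were thus also smaller than 1.5 in absolute size. The 0 that fell therefore does not by itself set the members apart. Removing the 25% of genes with the lowest mean normalized count left 0 for PCB153 at 24 h and 0 for the DNA 3'-5' helicase under PCB180. By role at an adjusted p under 0.01, PCB180 kept 0 histone genes, 1 risen chromatin modifier, 0 DNA 3'-5' helicases, 0 fallen cyclins and 0 reverse transcriptases in either direction. The second word list, before letters-only matches were set aside, held 11 that rose and 4 that fell under PCB180 and 6 that rose under PCB153 at 96 h. At an adjusted p under 0.01 it held 6 that rose and 2 that fell under PCB180, 0 that fell under PCB153 at 96 h and 0 at 24 h. At an adjusted p under 0.05 without the letters-only matches, chosen after the values were seen, 6 rose under PCB180 and 3 under PCB153 at 96 h. Counts at stricter settings are lower because fewer genes pass, and those without letters-only matches because these genes were taken out. Other correlations and the adjustment within pairs called 0 of the 6 differences (adjusted p from 0.568 to 0.998). No paired analysis was possible because the files used here hold no values per sample, and for the same reason no replicate could be left out.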

Other observations

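Gene identifiers join a contig and a gene number, so genes with adjoining numbers can be seen. Of the 21 members, 5 adjoin another listed gene (23.8%), against 200 of all 920 listed genes (21.7%). The reverse transcriptase ptg000027l.597 adjoins ptg000027l.598, annotated both as an acyl-CoA N-acyltransferase and as a P-loop nucleoside triphosphate hydrolase. This neighbour rose by 1.47 ± 0.47 under PCB180 and by 1.48 ± 0.45 under PCB153 at 96 h, next to 1.37 ± 0.46 under PCB180 and 1.39 ± 0.44 under PCB153 for the reverse transcriptase, in the authors' deposited table. Its mean normalized count was 11395, against 1620 for the reverse transcriptase. Whether reads that run past a gene's end play a part was not tested.

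Of all 5 members with a listed neighbour, 3 differed from it in direction. Rises and falls were both common in the list, as 63.2% of all genes listed under PCB180 at 96 h rose. The same count was not made over all adjoining listed genes, so it does not set the members apart. PSF2 (ptg000018l.290) rose, while ptg000018l.291, an alpha-1,2-glucosyltransferase of protein glycosylation, had a log2 fold change of -1.16 ± 0.30 under PCB180 in the authors' deposited table. The SET domain gene ptg000010l.456 fell, while ptg000010l.455, annotated as an amidase, a myosin and BZZ1, stood at 2.02 ± 0.47 in the authors' deposited table. The reverse transcriptase ptg000011l.69 fell, while the DUF4238 gene ptg000011l.68 stood at 2.20 ± 0.74 in the authors' deposited table. The DNA 3'-5' helicase ptg000017l.1 rose under PCB153, and so did ptg000017l.2, a clavaminate synthase-like protein, at 1.33 ± 0.36 in the authors' deposited table.

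Members that rose under PCB180 had a median mean normalized count of 189 (14.2 to 1620), and members that fell one of 312 (133 to 719), beside 143 and 527 for all listed genes that rose and that fell. These levels are not scaled for gene length. The part of count level in the direction of listing was not tested.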
